A study of Homo sapiens with 6 samples.

Results

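Aminoacyl-tRNA synthetases are the enzymes that load each amino acid onto its tRNA, and 38 genes of this family and its scaffold were followed on the polysomes of 3 breast cancer cell lines kept with ample or with little oxygen. The members were given as a list of symbols and read from the deposited table of 30726 genes, with the older name (without the final 1) where the table used it. They comprise 19 enzymes of the cytosol, 16 enzymes of mitochondria (whose names end in 2) and 3 scaffold proteins that hold several cytosolic enzymes together. The rule for membership uses names alone, though the list was drawn up with earlier results of these data known.

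SUM1315 is a triple negative line, SKBR3 a luminal HER2+ line and T47D a luminal A line, and all are labelled mammary and WT in genotype. Each was kept at 21% oxygen (normoxia) or exposed to 1% oxygen for 8 hours (hypoxia), and RNA was taken from the polysomes, the mRNAs that carry several ribosomes, after cycloheximide and a sucrose gradient. Each line gave 1 library per oxygen level, which makes 6 libraries and 3 pairs. All libraries, normoxic ones included, come from cycloheximide-treated cells, each line was grown in its own medium, and only SUM1315 medium held EGF per the labels.

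Every tRNA must be charged with its amino acid before the ribosome can use it. Human cells keep a largely separate set of nuclear-encoded synthetases for mitochondria, while GARS1 and KARS1 each encode the enzyme for both compartments. In the cytosol EPRS1, IARS1, KARS1, LARS1, MARS1, QARS1 and RARS1 sit in the multi-tRNA synthetase complex on the scaffold proteins AIMP1, AIMP2 and EEF1E1. Several cytosolic synthetase genes are known targets of the transcription factor ATF4, which is translated when amino acids are short or the integrated stress response is active.

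Values are RPKM, which divide a gene's reads by transcript length and library size and may be compared between genes. A value gives a gene's share of the polysome RNA sequenced. RNA of whole lysates was not analysed here, so mRNA amount and ribosome loading cannot be told apart, and in such bulk samples fewer cells of a type and less RNA per cell cannot be told apart either. One RPKM on a transcript of 1 kb stood for 21.7 to 33.4 reads or read pairs, and 3 counts there for 0.0897 to 0.138 RPKM (counting error only). Line markers followed the labels: ESR1 was at 4.54 and 5.18 RPKM in T47D and at most 0.0370 elsewhere, ERBB2 was at 615 and 743 RPKM in SKBR3 and at most 8.76 elsewhere, and AXL was at 113 and 121 RPKM in SUM1315 and at most 0.833 elsewhere. The leukocyte gene PTPRC and the endothelial gene PECAM1 were at most 0.00773 RPKM, and CD3E at most 0.0952. COL1A1, listed with them as a marker of other cells, was at 91.7 and 119 RPKM in SUM1315 and at most 2.34 elsewhere. The luminal markers KRT8, KRT18 and EPCAM were at most 0.736 RPKM in SUM1315. FOXA1 was at most 0.929 there, but GATA3 was at 1.79 and 3.36 RPKM. The low-oxygen gene SLC2A1, a glucose transporter, rose by 2.46 ± 0.14 on the log2 scale (limma, adjusted p = 1.89e-05).

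Among the cytosolic enzymes the dual-compartment lysyl enzyme KARS1 had the highest mean level over the 6 libraries, 39.0 RPKM. In normoxia and hypoxia it read 53.2 and 48.4 RPKM in SUM1315, 34.3 and 42.2 in SKBR3, and 26.4 and 29.1 in T47D. FARSA, the catalytic subunit of phenylalanyl-tRNA synthetase, followed at a mean of 38.8 RPKM, most of it from SUM1315. The cysteinyl enzyme CARS1 was lowest, with a mean of 1.55 RPKM: it read 2.16 and 2.50 in SUM1315, 0.787 and 1.33 in SKBR3, and 1.05 and 1.50 in T47D. The median over the 19 cytosolic enzymes was 7.34 RPKM, beside 6.30 over all genes tested.

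The 15 mitochondrial enzymes that were tested had a median of 5.10 RPKM. The isoleucyl enzyme IARS2 was the most abundant, with a mean of 17.5 RPKM. Mitochondrial leucyl enzyme LARS2 was the least, at 1.10 and 1.13 RPKM in SUM1315, 0.306 and 0.391 in SKBR3, and 0.575 and 0.526 in T47D, in normoxia and hypoxia. It reached 1 RPKM in SUM1315 alone, and was the 1 member of the 38 that was not tested, since the test asked for 1 RPKM in at least 3 libraries. The 3 scaffold proteins had mean levels of 30.8 RPKM (EEF1E1), 21.1 RPKM (AIMP2) and 4.84 RPKM (AIMP1). Summed over the class, cytosolic enzymes gave 127 to 337 RPKM in a library and mitochondrial enzymes 65.7 to 128 RPKM, so that the cytosolic sum was above the mitochondrial sum in all 6 libraries.

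**Figure D1:**
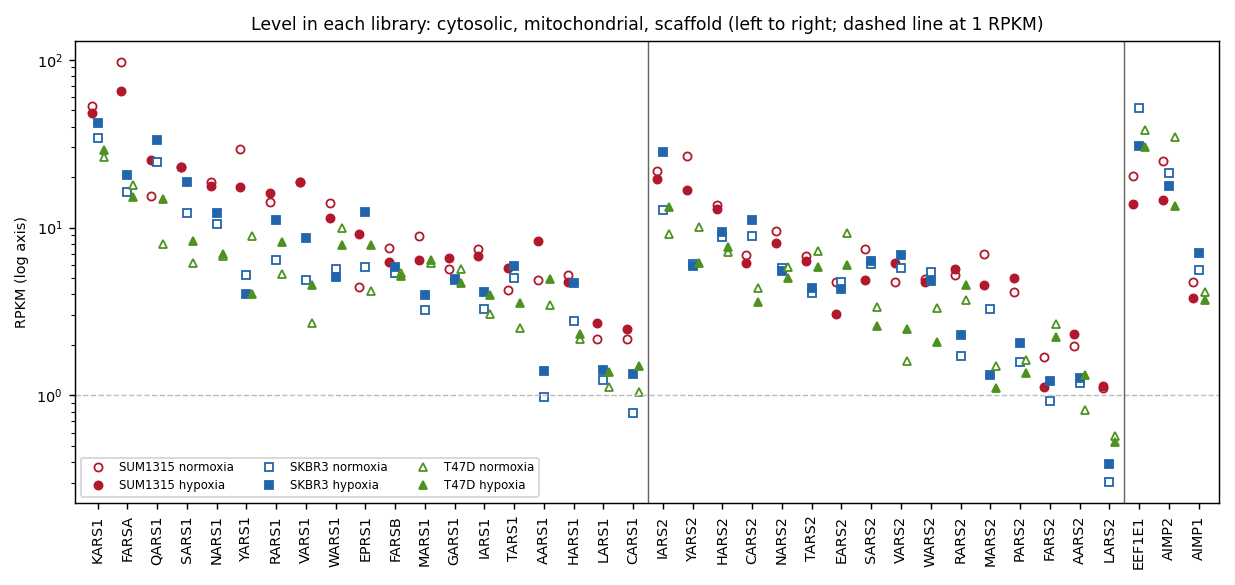
Levels of the 38 genes in each library, in RPKM on a log axis, with 1 point per library coloured by line, open for normoxia and filled for hypoxia; classes are ordered by mean level. KARS1 and FARSA lead the cytosolic enzymes, IARS2 leads the mitochondrial ones, and LARS2 lies lowest of all.

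In hypoxia the family did not move as a block. EPRS1 and QARS1 rose and YARS1, MARS2 and AIMP2 fell, while 32 of the 37 members tested did not pass. That is 13.5% of the members called in either direction, beside 6.38% of all 10253 genes tested. In single directions the background was 4.12% higher and 2.26% lower. Called means an adjusted p under 0.05 in a limma fit of log2(RPKM + 1) over all genes, with the line as a block. The log2 differences given below are hypoxia minus normoxia on that scale, which understates the change of low genes. The labels name no repeat of any line, so p-values measure the spread between these 3 pairs of libraries, moderated toward that of other genes.

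In the fit cytosolic enzymes lay mostly above 0, while mitochondrial enzymes lay on both sides. By line 4 (SUM1315), 10 (SKBR3) and 5 (T47D) of the 15 mitochondrial enzymes tested were above 0. Of the 19 cytosolic enzymes 2 rose, 1 fell and 16 did not pass, and 13 had a fitted difference above 0 (68.4%, beside 49.2% of all genes tested). Of the 15 mitochondrial enzymes tested none rose, 1 fell and 14 did not pass. At an unadjusted p under 0.05 limma gave 2 mitochondrial enzymes higher and 3 lower and 7 cytosolic enzymes higher and 1 lower, beside 1457 higher and 1235 lower of all 10253 genes. Fitted differences were above 0 in 6 of the 15 (40.0%). The median log2 difference was 0.17 for cytosolic and -0.10 for mitochondrial enzymes, beside -0.01 over all genes tested, of which 50.8% lay below 0.

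The distance between the medians of both classes was 0.26 in the fit, and by line 0.14 (SUM1315), 0.20 (SKBR3) and 0.35 (T47D). The position of each class moved with the line. The cytosolic median was 0.00 for SUM1315, 0.28 for SKBR3 and 0.16 for T47D, and the mitochondrial median -0.14, 0.07 and -0.19. In the cytosol 9 of 19 enzymes had a higher value in hypoxia in all 3 lines, beside 23.5% of all genes, and 3 of 15 did in mitochondria. A lower value in all 3 lines was found for 2 cytosolic and 5 mitochondrial enzymes, beside 25.2% of all genes. These counts and medians describe the classes, and the difference between the classes was not tested. Without SUM1315 the mitochondrial median was 0.02, above 0.

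**Figure D2:**
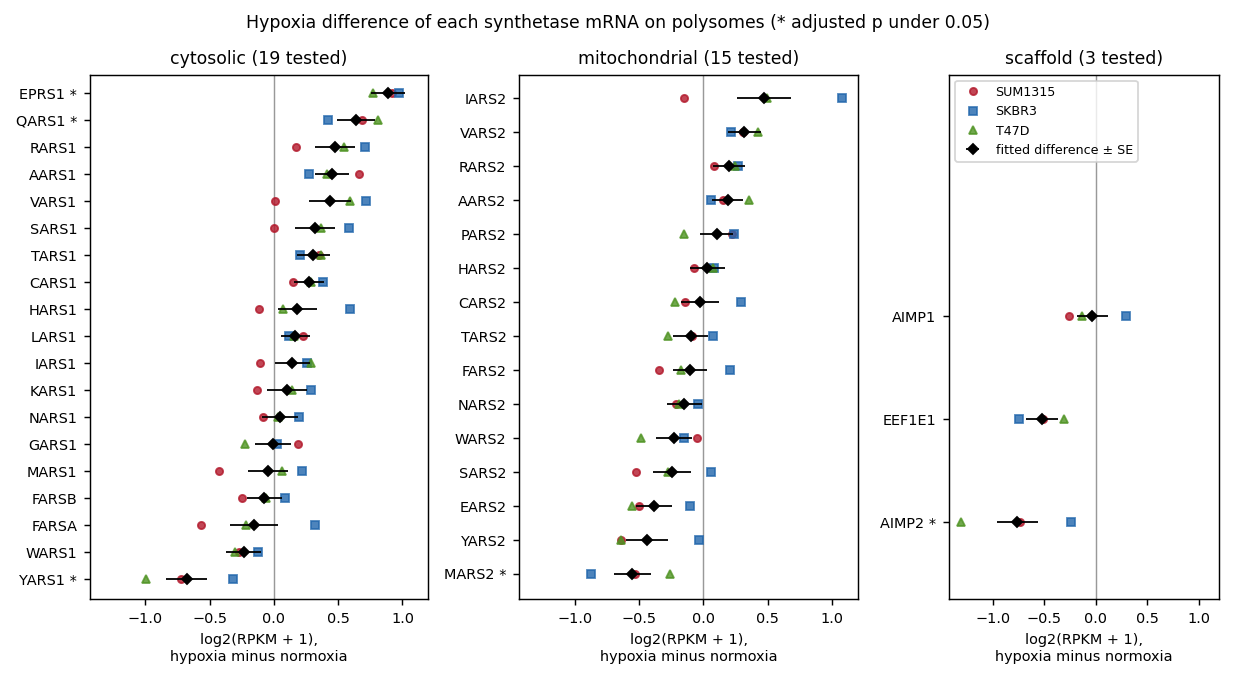
Difference of log2(RPKM + 1), hypoxia minus normoxia, for each of the 37 members tested: diamonds are the fitted value with bars of 1 SE, coloured points the 3 lines, and an asterisk marks adjusted p under 0.05. EPRS1 is highest at 0.89 and AIMP2 lowest at -0.76.

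EPRS1, a single protein that charges both glutamate and proline and belongs to the complex, rose the most of the 37 members tested. Its gene lies on chromosome 1, 219968601 to 220046658, minus strand (GRCh38, GENCODE 29). It read 4.42 RPKM in normoxia and 9.21 in hypoxia in SUM1315, 5.84 and 12.4 in SKBR3, and 4.21 and 7.90 in T47D. All 3 hypoxic libraries were above all 3 normoxic ones. The mean went from 4.82 ± 0.889 to 9.85 ± 2.33 RPKM (SD, n = 3 lines), and the fitted log2 difference was 0.89 ± 0.13 (SE; limma, adjusted p = 0.00807). The call held with any 1 line left out, with adjusted p of 0.00434 to 0.0195.

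QARS1, the glutaminyl enzyme of the complex (chromosome 3, 49095932 to 49105135, minus strand), also rose. It read 15.4 and 25.3 RPKM in normoxia and hypoxia in SUM1315, 24.7 and 33.5 in SKBR3, and 7.99 and 14.8 in T47D. Each line was higher in hypoxia, but the groups overlapped because T47D in hypoxia lay below SUM1315 and SKBR3 in normoxia. The fitted difference was 0.64 ± 0.15 (limma, adjusted p = 0.0358), and the mean went from 16.0 ± 8.37 to 24.5 ± 9.38 RPKM (SD, n = 3). The call was lost without SUM1315 (adjusted p = 0.102) and without T47D (adjusted p = 0.144).

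The other 5 enzymes of the complex did not pass. RARS1, the arginyl enzyme, came nearest: it read 14.1 and 16.0 RPKM in SUM1315, 6.41 and 11.1 in SKBR3, and 5.28 and 8.18 in T47D, with a fitted difference of 0.48 ± 0.15 (limma, adjusted p = 0.0866). LARS1, the leucyl enzyme that also senses leucine for mTORC1 signalling, had 0.17 ± 0.11, IARS1 had 0.14 ± 0.14, and KARS1 had 0.10 ± 0.16. MARS1, the methionyl enzyme, had -0.05 ± 0.16, with SUM1315 lower in hypoxia and SKBR3 higher. Over the 7 complex enzymes 2 rose, none fell and the median was 0.17. Over the 12 outside it none rose, 1 fell and the median was 0.12. No member of the 7 was lower in hypoxia in all 3 lines.

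The scaffold proteins lay on the other side of 0. AIMP2, the protein on which much of the complex is assembled (chromosome 7, 6009245 to 6023834, plus strand), read 25.0 and 14.6 RPKM in normoxia and hypoxia in SUM1315, 21.1 and 17.7 in SKBR3, and 34.7 and 13.4 in T47D. All hypoxic libraries were below all normoxic ones. It fell by 0.76 on the log2 scale (SE 0.20; limma, adjusted p = 0.0499). Mean normoxic and hypoxic levels were 27.0 ± 7.01 and 15.2 ± 2.24 RPKM (SD, n = 3). This call lay close to the threshold and was kept in 4 of 10 alternatives. It was lost without T47D (limma, adjusted p = 0.229). With all lines kept it was lost too, among others with pseudocount 0.1 (adjusted p = 0.0506) and with median-centred libraries (adjusted p = 0.0644). AIMP2 shares 532 exonic bases, 28.9% of its own, with EIF2AK1 on the opposite strand. EIF2AK1, an eIF2 kinase, read 41.7 and 45.4 RPKM in SUM1315, 117 and 139 in SKBR3, and 96.5 and 110 in T47D, higher in hypoxia in each line. Without a stated strand the reads of both genes cannot be told apart there.

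EEF1E1, the small scaffold protein also known as AIMP3, had 20.2 and 13.9 RPKM in normoxia and hypoxia in SUM1315, 51.8 and 30.5 in SKBR3, and 37.9 and 30.3 in T47D. Every line was lower in hypoxia, but the groups overlapped, and the difference of -0.52 ± 0.15 did not pass (limma, adjusted p = 0.0691). AIMP1, a scaffold protein that is also released as a cytokine, read 4.75 and 3.79 RPKM in SUM1315, 5.58 and 7.08 in SKBR3, and 4.14 and 3.68 in T47D. Its difference was -0.03 ± 0.15 (limma, adjusted p = 0.900), with SKBR3 higher in hypoxia and the other lines lower. The ratio of EPRS1 to AIMP2 in RPKM was 0.121 to 0.277 in normoxia and 0.590 to 0.700 in hypoxia. That gap follows from the values above, as EPRS1 and AIMP2 have the highest and lowest differences of the members tested. The QARS1 to AIMP2 ratio was 0.230 to 1.17 in normoxia and 1.10 to 1.89 in hypoxia, with overlap.

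**Figure D3:**
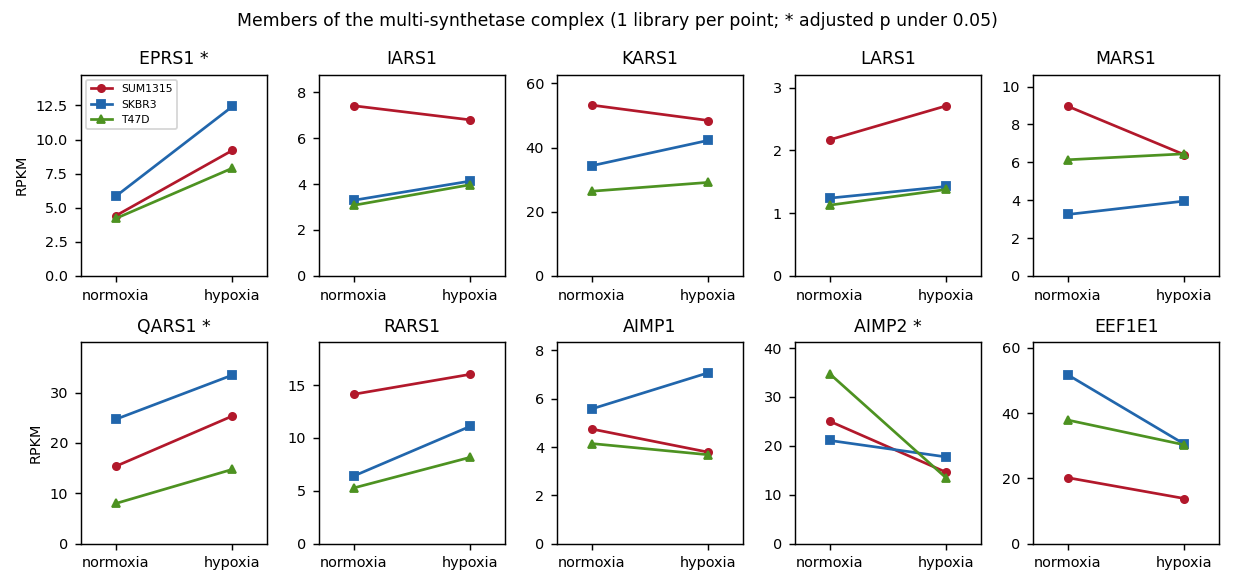
RPKM (linear axes from 0) of the 7 complex enzymes and 3 scaffold proteins, with 1 point per library and a line joining normoxia and hypoxia of each cell line; an asterisk marks adjusted p under 0.05. EPRS1, QARS1, RARS1 and LARS1 are higher in hypoxia in all 3 lines, and AIMP2 and EEF1E1 are lower in all 3. IARS1, KARS1, MARS1 and AIMP1 go both ways.

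Outside the complex, YARS1, the tyrosyl enzyme (chromosome 1, 32775237 to 32818153, minus strand), fell. It read 29.5 and 17.5 RPKM in normoxia and hypoxia in SUM1315, 5.25 and 4.01 in SKBR3, and 8.97 and 4.00 in T47D. Each line was lower in hypoxia, but the groups overlapped because SUM1315 stood above the other lines at either oxygen level. YARS1 fell by 0.68 on the log2 scale (SE 0.16; limma, adjusted p = 0.0366), and its mean went from 14.6 ± 13.1 to 8.50 ± 7.78 RPKM (SD, n = 3). The call was lost without T47D (adjusted p = 0.189).

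WARS1, the tryptophanyl enzyme known as an interferon-induced gene, was also lower in each line, at 14.0 and 11.5 RPKM in SUM1315, 5.67 and 5.10 in SKBR3, and 9.87 and 7.83 in T47D. Its difference of -0.23 ± 0.14 did not pass (limma, adjusted p = 0.301). AARS1, the alanyl enzyme, had 0.45 ± 0.13 (limma, adjusted p = 0.0682), and read 4.89 and 8.32 RPKM in SUM1315, 0.978 and 1.39 in SKBR3, and 3.44 and 4.92 in T47D. The valyl enzyme VARS1 was near level in SUM1315 (18.6 and 18.7 RPKM) and higher in hypoxia in SKBR3 (4.88 and 8.67) and T47D (2.71 and 4.58). Its fitted difference was 0.44 ± 0.16 (limma, adjusted p = 0.131), and 0.65 without SUM1315 (adjusted p = 0.0276).

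The remaining cytosolic enzymes outside the complex gave no call. TARS1 (threonyl) had 0.31 ± 0.13, SARS1 (seryl) 0.32 ± 0.16, CARS1 0.27 ± 0.12 and HARS1 (histidyl) 0.18 ± 0.15. NARS1 (asparaginyl) stood at 0.05 ± 0.14. GARS1, the glycyl enzyme of both compartments, read 5.67 and 6.59 RPKM in SUM1315, 4.87 and 4.95 in SKBR3, and 5.68 and 4.70 in T47D, with a difference of -0.01 ± 0.14 (limma, adjusted p = 0.977).

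FARSA and FARSB encode the catalytic and the regulatory subunit of the same enzyme, which is built of both in equal number. FARSA read 97.3 and 65.5 RPKM in normoxia and hypoxia in SUM1315, 16.3 and 20.6 in SKBR3, and 17.8 and 15.2 in T47D. FARSB read 7.61 and 6.24, 5.39 and 5.78, and 5.40 and 5.14 RPKM in the same order. The polysome RNA of both subunits was thus far from equal: the FARSA to FARSB ratio in RPKM was 10.5 to 12.8 in SUM1315 and 2.95 to 3.56 in the other lines. The hypoxia differences were -0.15 ± 0.18 for FARSA and -0.07 ± 0.14 for FARSB, and neither passed (limma, adjusted p = 0.614 and 0.757).

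Of the mitochondrial enzymes MARS2, the methionyl enzyme (chromosome 2, 197705369 to 197708387, plus strand), was the 1 that fell. It read 6.99 and 4.53 RPKM in normoxia and hypoxia in SUM1315, 3.25 and 1.33 in SKBR3, and 1.51 and 1.10 in T47D. Each line was lower in hypoxia and the groups overlapped. MARS2 fell by 0.55 on the log2 scale (SE 0.14; limma, adjusted p = 0.0498). Mean normoxic and hypoxic levels were 3.91 ± 2.80 and 2.32 ± 1.92 RPKM (SD, n = 3). The call was lost without SKBR3 (adjusted p = 0.135) and without T47D (adjusted p = 0.0697).

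The next lowest were YARS2 and EARS2. YARS2, the mitochondrial tyrosyl enzyme, read 26.7 and 16.8 RPKM in SUM1315, 6.08 and 5.90 in SKBR3, and 10.1 and 6.12 in T47D. Its difference was -0.44 ± 0.16 (limma, adjusted p = 0.126), with SKBR3 nearly level, and -0.64 without SKBR3 (adjusted p = 0.0460). EARS2, the mitochondrial glutamyl enzyme, read 4.72 and 3.04, 4.71 and 4.33, and 9.28 and 6.01 RPKM, with a difference of -0.38 ± 0.14 (limma, adjusted p = 0.127).

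At the upper end stood IARS2, VARS2 and RARS2. IARS2 read 21.8 and 19.6 RPKM in SUM1315, 12.8 and 28.2 in SKBR3, and 9.11 and 13.2 in T47D. The lines were far apart, from a log2 ratio of -0.15 in SUM1315 to 1.08 in SKBR3. Its fitted difference of 0.47 ± 0.21 did not pass (limma, adjusted p = 0.190) but did without SUM1315 (0.79, adjusted p = 0.0261). VARS2, the valyl enzyme, was higher in hypoxia in each line, at 4.75 and 6.13, 5.77 and 6.87, and 1.60 and 2.50 RPKM, with 0.32 ± 0.13 (limma, adjusted p = 0.153). RARS2, the arginyl enzyme, was too, at 5.25 and 5.63, 1.72 and 2.28, and 3.70 and 4.56 RPKM, with 0.20 ± 0.13 (limma, adjusted p = 0.336). The other 9 mitochondrial enzymes tested had fitted differences between -0.24 (SARS2) and 0.19 (AARS2).

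For 17 pairs of a cytosolic and a mitochondrial enzyme of the same amino acid, levels were set side by side. The cytosolic gene was the higher of the pair in all 6 libraries for 8 pairs, the lower in all 6 for 3 pairs, and mixed for 6. Among the pairs led by the cytosolic gene the widest gap was FARSA over FARS2, at 23.7-fold of the mean RPKM, followed by FARSB over FARS2 at 3.62-fold and SARS1 over SARS2 at 2.98-fold. The mitochondrial gene led for cysteine (CARS2 4.37-fold over CARS1), isoleucine (IARS2 3.65-fold over IARS1) and histidine (HARS2 2.71-fold over HARS1).

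Of the 16 pairs in which both genes were tested, the cytosolic gene had the higher hypoxia difference in 12, and in 9 of these in all 3 lines. EPRS1 stood furthest from its partners, with a log2 difference above that of EARS2 by 1.27 (1.42 in SUM1315, 1.07 in SKBR3 and 1.32 in T47D) and above that of PARS2, the prolyl enzyme, by 0.78. The serine and methionine pairs followed, at 0.56 and 0.50. Tyrosine was the 1 pair in which the cytosolic gene had the lower difference in every line, at -0.24 in the fit. Both tyrosyl enzymes were lower in hypoxia in each line, and the YARS1 to YARS2 ratio of RPKM was 0.862 to 1.11 in normoxia and 0.654 to 1.04 in hypoxia, with overlap. Isoleucine also went against the majority, at -0.33, with SUM1315 at 0.04. EPRS1 enters 2 pairs and FARS2 enters 2, so the pairs are not independent, and these gaps were not tested.

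**Figure D4:**
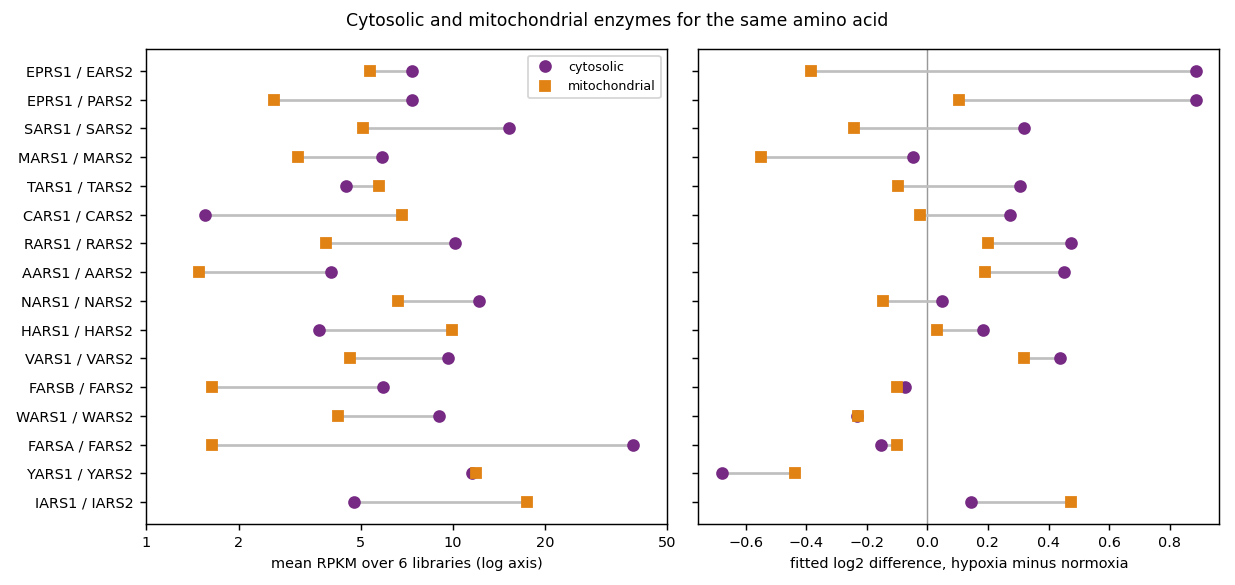
Cytosolic (circles) and mitochondrial (squares) enzymes of the 16 tested pairs, with mean RPKM over 6 libraries on a log axis at left and the fitted log2 difference, hypoxia minus normoxia, at right. At right the circle lies to the right of the square in 12 of 16 pairs, and EPRS1 with EARS2 are furthest apart, at 1.27.

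HARS1 and HARS2, the cytosolic and mitochondrial histidyl enzymes, are neighbours on chromosome 5 that are read in opposite directions. HARS1 spans 140673904 to 140691862 on the minus strand and HARS2 140691426 to 140699318 on the plus strand (GRCh38, GENCODE 29). In GENCODE 29 the genes thus overlap, from 140691426 to 140691862. The RefSeq start sites of the pair lie 84 bases apart on GRCh38.p14, chr5:140691371-140691454. The sequence between these RefSeq sites is shown on the plus strand.
HARS1 and HARS2: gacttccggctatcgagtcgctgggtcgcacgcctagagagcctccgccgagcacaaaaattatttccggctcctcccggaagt
The pair had unlike levels. HARS1 read 5.22 and 4.75 RPKM in normoxia and hypoxia in SUM1315, 2.79 and 4.70 in SKBR3, and 2.16 and 2.33 in T47D. HARS2 read 13.6 and 12.9, 8.83 and 9.42, and 7.18 and 7.63 RPKM, above HARS1 in every library. Neither passed in hypoxia (limma, 0.18 ± 0.15, adjusted p = 0.470, and 0.03 ± 0.14, adjusted p = 0.906). Of other members, SARS2 shares 46.2% of its exonic bases with ENSG00000269547 and 10.8% with MRPS12, a mitochondrial ribosomal protein gene at 63.4 to 146 RPKM. VARS2 shares 22.0% with GTF2H4, EEF1E1 18.7% with EEF1E1-BLOC1S5 and AIMP1 11.6% with TBCK, and smaller overlaps include MARS1 with DDIT3 (5.05%) and YARS1 with S100PBP (4.82%). The annotated exons of HARS1 and HARS2 share 437 bases, 11.7% of those of HARS2, so reads there cannot be assigned without strand.

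Promoters were read from RefSeq (GRCh38.p14), as the 250 bases before to 50 after each start site, for 33 of the 38 members. YARS1, VARS1, LARS1, AARS2 and VARS2 had no entry. The letters TGATGNAA, the core of the C/EBP-ATF response element through which ATF4 acts, were searched on both strands. They stood in 7 of 16 cytosolic genes (43.8%), 1 of 14 mitochondrial genes (7.14%) and none of the 3 scaffold genes. Among all 27305 genes of the promoter table they stood in 4.46%, and among the 7960 tested here with an entry in 2.27%. Genes with several start sites have several entries, and 7 of 21 cytosolic entries (33.3%) held the letters. The 8 stretches of 30 bases are shown on the gene's strand, with the match in capitals. In all but NARS1 and YARS2 it is the reverse complement of the searched letters.
AARS1, chr16:70289675-70289704, minus strand: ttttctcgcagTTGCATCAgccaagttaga
CARS1, chr11:3057407-3057436, minus strand: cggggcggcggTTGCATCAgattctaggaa
GARS1, chr7:30594834-30594863, plus strand: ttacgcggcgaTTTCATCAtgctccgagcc
IARS1, chr9:92293692-92293721, minus strand: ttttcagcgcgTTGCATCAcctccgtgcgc
MARS1, chr12:57488053-57488082, plus strand: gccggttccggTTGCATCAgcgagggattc
NARS1, chr18:57621804-57621833, minus strand: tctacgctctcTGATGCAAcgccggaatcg
TARS1, chr5:33440956-33440985, plus strand: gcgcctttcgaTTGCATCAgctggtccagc
YARS2, chr12:32756076-32756105, minus strand: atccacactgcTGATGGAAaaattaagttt
The search fixes every letter of a match but N, so matches can differ at that letter alone. With it, 6 of the 7 cytosolic stretches read TTGCATCA or its complement, and GARS1 differs from them.

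None of the 7 cytosolic genes with the letters was called in hypoxia, beside 6.38% of all genes, 5 had a fitted difference above 0, and they ran from -0.05 (MARS1) to 0.45 (AARS1) with a median of 0.14. Of the 9 cytosolic genes with an entry and no match 6 were above 0, with a median of 0.18, and 2, EPRS1 and QARS1, rose. Counts this small are near the background, and no difference between these groups was tested. A match is a description of the letters, not of binding.

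The core of the hypoxia response element, ACGTG or GCGTG on both strands, was searched in the same windows. GCGTG stood in 13 of 16 cytosolic and 12 of 14 mitochondrial genes, beside 59.8% of the genes tested. ACGTG stood in 4 of 16 (25.0%) and 5 of 14 (35.7%), beside 33.7%. The 100 bases before the start site of the pair that rose are shown with these letters in capitals.
EPRS1, chr1:220046506-220046605, minus strand: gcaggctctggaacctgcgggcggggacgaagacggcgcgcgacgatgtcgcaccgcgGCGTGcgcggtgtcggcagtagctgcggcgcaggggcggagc
QARS1, chr3:49104758-49104857, minus strand: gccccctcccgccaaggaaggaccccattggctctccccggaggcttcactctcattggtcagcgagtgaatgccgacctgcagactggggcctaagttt
EPRS1 had 1 match in this stretch and 3 in its 300 bases, and QARS1 had none in either.

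Members with a long coding sequence tended to lie higher in hypoxia. The longest coding sequence per gene in GENCODE 29 ran from 522 bases (EEF1E1) to 4536 bases (EPRS1), with a median of 1734. Spearman's rho between coding length and the fitted log2 difference was 0.69 over the 37 members tested, and by line 0.58 (SUM1315), 0.47 (SKBR3) and 0.72 (T47D). Within classes it was 0.55 for the 19 cytosolic and 0.48 for the 15 mitochondrial enzymes. In SUM1315, SKBR3 and T47D it was 0.60, 0.33 and 0.64 for cytosolic and 0.22, 0.29 and 0.48 for mitochondrial enzymes. Over the 9500 genes tested that have a coding length it was 0.16 (0.15, 0.24 and 0.04 in the lines). These are correlations across genes of the same libraries, so they carry no p.

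Of the 18 members above the median length 13 had a difference above 0, with a median of 0.23. Of the 19 at or below it 6 did, with a median of -0.15. QARS1 has 2325 coding bases, MARS2 1779, YARS1 1584 and AIMP2 960. IARS2, with 3036 bases, was also at the upper end of its class. Over all genes the called ones showed the same order: the median coding length was 1704 bases for those higher in hypoxia, 1050 for those lower and 1297 for all. RPKM divides by transcript length, and polysome fractions hold mRNAs by ribosome number, and the part of either in this pattern was not tested.

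**Figure D5:**
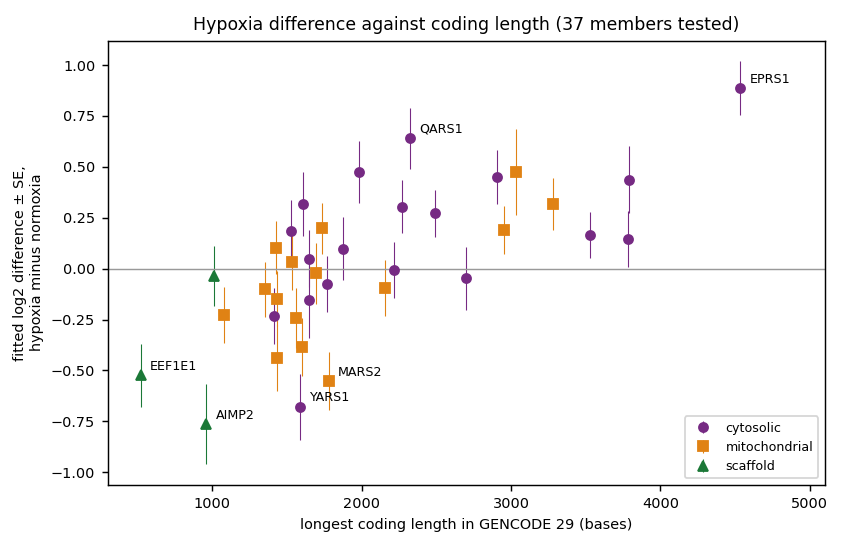
Longest coding length in bases against the fitted log2 difference, hypoxia minus normoxia, with 1 point per member coloured by class and bars of 1 SE. The points run from EEF1E1 (522 bases, -0.52) to EPRS1 (4536 bases, 0.89), with rho of 0.69 over 37 members.

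More members differed between lines than between oxygen levels. SUM1315 had the highest mean level of the 3 lines for 16 of 19 cytosolic and 9 of 16 mitochondrial enzymes, and T47D the lowest for 13 and 10. In the same fit, with oxygen level as a term, 24 of the 37 members tested differed between SUM1315 and SKBR3 (64.9%, beside 69.8% of all genes), of which 20 were higher and 4 lower in SUM1315 (all genes: 41.8% and 28.0%). Between SUM1315 and T47D 29 differed (78.4%, beside 69.2%), 26 higher and 3 lower (all genes: 39.0% and 30.2%). Between SKBR3 and T47D 21 did (56.8%, beside 57.9%), 14 higher and 7 lower in SKBR3 (all genes: 26.6% and 31.2%). The shares of members that differed are near those of all genes for both contrasts with SKBR3. Between SUM1315 and T47D all 15 cytosolic enzymes that differed were higher in SUM1315.

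AARS1 had the widest spread among the cytosolic enzymes, 5.57-fold between the mean levels of SUM1315 and SKBR3. It was higher in SUM1315 than in SKBR3 by 1.77 on the log2 scale (limma, adjusted p = 5.86e-06), and lower in SKBR3 than in T47D by 1.24. YARS1, FARSA and VARS1 spread 5.07-, 4.93- and 5.11-fold, each highest in SUM1315. FARSA was higher there by 2.06 against SKBR3 (limma, adjusted p = 2.06e-05), and YARS1 by 2.09 (adjusted p = 7.11e-06). Both tyrosyl enzymes shared this order, since YARS2 was higher in SUM1315 than in SKBR3 by 1.67 and than in T47D by 1.32.

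MARS2 was the most line-dependent mitochondrial enzyme, at 4.42-fold between the highest and lowest line. EARS2 went the other way: it was lower in SUM1315 than in T47D (-0.82; limma, adjusted p = 0.00187), as was FARS2 (-0.53; adjusted p = 0.0149). The scaffold protein EEF1E1 was also lower in SUM1315, by -1.20 against SKBR3 (adjusted p = 0.000258) and -0.97 against T47D. For FARSB, GARS1 and AIMP2 no difference between lines passed, with 1.25-fold between the highest and lowest line for GARS1 and 1.24-fold for AIMP2. Each line has 2 libraries, 1 per oxygen level, and growth media differed with the line, so line and medium cannot be told apart.

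Genes around the synthetases were read from 2 lists. Of 24 genes of tRNA maturation and export none rose, 2 fell and the median was -0.20 (8.33% called, near the 6.38% of all genes). Both that fell, RPP40 and RPP30, encode proteins of the RNase P and MRP complexes, which trim the 5′ end of precursor tRNA and cut ribosomal RNA precursors. RPP40 read 11.3 and 6.55 RPKM in SUM1315, 4.30 and 2.87 in SKBR3, and 10.1 and 4.92 in T47D (-0.69 ± 0.14; limma, adjusted p = 0.0243). RPP30 read 9.77 and 6.95, 5.19 and 2.63, and 19.4 and 13.4 RPKM (-0.57 ± 0.14; adjusted p = 0.0426). The other RNase P and MRP genes of the list did not pass, and ran from -0.55 (RPP38) to 0.28 (POP1). Of these, POP1, RPP21, PRORP and POP7 were above 0.

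Of 15 tested genes of amino acid supply 1 rose, none fell and the median was 0.11 (6.67% called, near the 6.38% of all genes). SHMT2, the mitochondrial enzyme that makes glycine from serine, read 13.0 and 17.5 RPKM in SUM1315, 12.6 and 25.2 in SKBR3, and 12.9 and 27.9 in T47D (0.80 ± 0.17; limma, adjusted p = 0.0245). Its hypoxic libraries were all above its normoxic ones. Nearest to the threshold among the rest were the amino acid transporter SLC38A2 (0.58; limma, adjusted p = 0.0501), the proline synthesis enzyme ALDH18A1 (0.49; adjusted p = 0.0632), and the serine synthesis enzymes PSAT1 (-0.46; adjusted p = 0.0655) and PHGDH (0.43; adjusted p = 0.0696), which stood on opposite sides of 0. Asparagine synthetase ASNS had 0.11 (limma, adjusted p = 0.553).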

How the data were processed

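Polysome RNA was measured in 6 libraries, 3 per oxygen level. The authors deposited 1 table of values per gene and library, read here as RPKM from the values themselves, since the header names no unit: in genes with a single annotated transcript 64.9% to 69.0% of 3203 to 3527 values per library were whole multiples of 1 step (tolerance 0.02 of a step; 4% by chance). Trimmomatic, HISAT2, SAMtools, Partek and the builds GRCh38 and hg38 are named in the submitters' processing notes. Not given in the sources used here are their versions, the counting annotation, strand and read length.

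The 10253 genes that reached 1 RPKM in 3 or more of 6 libraries were kept, and log2(RPKM + 1) was fitted with limma 3.58.1 in R 4.3.3 (line as block, mean-variance trend, two-sided, Benjamini-Hochberg over all genes tested, threshold 0.05). The fit was tested on simulated data. The line pairs the samples: deviations of the 2 libraries of a line from their group means correlated at 0.97 in SUM1315 and 0.94 in SKBR3 and in T47D. Prior degrees of freedom were 8.02 and residual ones 2. Coordinates, exon overlaps and coding lengths come from GENCODE 29 (GRCh38).

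Members and gene lists were chosen with earlier results of these data known. Values per library are given for members past the threshold, the 3 highest and 3 lowest differences per class, the scaffolds, GARS1, KARS1, FARSA, FARSB, the highest and lowest level per class and the widest line spread. From the other lists, genes past the threshold were named. HARS1, HARS2, VARS1, EIF2AK1, SLC38A2, ALDH18A1, PSAT1, PHGDH, ASNS and the RNase P and MRP genes that did not pass were added after their values were seen. A list of charging partners is not reported here. Alternatives covered the pseudocount, filter, centring, trend, block and leaving out each line or library. Rank correlations with coding length, over all lines and within each, were chosen after seeing the data.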

Additional observations from a re-analysis of the deposited data

Results flagged for a closer look

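In 2 genes 1 line had a log2 ratio of 0.25 or more in hypoxia and another line one of -0.25 or less. FARSA stood at 0.32 in SKBR3 and -0.56 in SUM1315, which is 0.883 apart. AIMP1 stood at 0.30 in SKBR3 and -0.26 in SUM1315, which is 0.559 apart. Each line has 1 pair of libraries, so the difference between lines was not tested.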

How the results depend on the processing

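Lines, not repeats of a line, are the replication, and a count of 3 at 1 kb stands for up to 0.138 RPKM, so low members such as LARS2, AARS2, MARS2, FARS2 and CARS1 are the least precise in counting. With pseudocount 5 and without SKBR3 AIMP2 moved further than EPRS1 (-0.64 against 0.59, and -1.03 against 0.84). Of 366 values of single members under the alternatives 327 kept direction and side of the threshold, 24 lost the call, 4 gained it and 11 changed sign. EPRS1 was called in 8 of 10 alternatives, YARS1 in 6, QARS1 in 5, AIMP2 in 4 and MARS2 in 3. Without the replicate block 0 genes were called (68 at an unadjusted p under 0.05), so the counts for cytosolic higher and lower, mitochondrial lower and scaffold lower were all 0. With no filter on low values they were also 0, as no gene of 27552 was called (2715 at an unadjusted p under 0.05). Pseudocount 5 gave 1 cytosolic enzyme higher, 0 lower in each class, and a distance of 0.13 between the class medians (main 0.26). The mitochondrial count lower was 0 with median-centred libraries and without the trend. The scaffold count lower was 0 with pseudocount 0.1 and with median centring, and 2 with 1 RPKM required in all libraries. Over all genes 654 were called, and 716 with pseudocount 0.1, 243 with pseudocount 5, 958 of 7547 with the stricter filter, 523 when centred, 666 without the trend, and 823, 651 and 232 without SUM1315, SKBR3 and T47D.

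With 1 line left out, cytosolic enzymes higher numbered 1 to 2 and lower 0 to 1. Mitochondrial enzymes higher numbered 0 to 1, with IARS2 called without SUM1315, and lower 0 to 1. Scaffold proteins lower numbered 0 to 1, and each minimum of a lower count came without T47D. The distance between class medians was 0.18 to 0.27. Members differing between SKBR3 and T47D were 21, but 10 with no filter, 13 without oxygen as a term, and 12 (without the T47D normoxia library) to 21 with 1 library left out. Signs changed in 9 members, none called in either fit: leaving out 1 line gave -0.39 to 0.050 for FARSA, -0.15 to 0.014 for FARSB, -0.10 to 0.10 for GARS1, -0.020 to 0.33 for HARS1, -0.18 to 0.14 for MARS1, -0.024 to 0.12 for NARS1, -0.18 to 0.075 for CARS2, -0.26 to 0.019 for FARS2 and -0.20 to 0.080 for AIMP1. The cause was not tested.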
